A study of Mus musculus with 12 samples.

Results

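The genes described here are 10 liver genes of growth hormone signalling and its feedback: the receptor Ghr, the signal transducers Stat5a and Stat5b, the feedback inhibitors Cish, Socs2 and Socs3, the circulating products Igf1 and Igfals, and the repressors Bcl6 and Cux2. They were taken by symbol from 50559 genes listed in the deposited tables, and all 10 symbols were found. They were selected on measured values, their counts in these same libraries across the 4 groups, so their levels and changes are given below as a description. The changes, intervals and calls come from fits across all genes, and no separate test was run on the set.

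The data are counts of RNA sequencing reads per gene from livers of C57BL/6N mice, in 12 libraries. The 4 groups of 3 libraries are chow-fed mice (NCD, the normal chow diet), mice kept for 12 weeks on food that supplied 60% of energy as fat (HFD, the high-fat diet), and HFD-fed mice that also received C1 (HFD+C1) or C2 (HFD+C2), each injected intraperitoneally at 5 mg/kg per day over those 12 weeks. The series title calls C1 and C2 inhibitors of CYP4A, the cytochrome P450 family that hydroxylates fatty acids; the labels give neither compound's structure, and they name no vehicle injection for the NCD and HFD mice. The labels call the samples biological replicates and state neither sex nor age, nor the hour at which livers were taken.

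Growth hormone is released from the pituitary in pulses and binds its receptor on hepatocytes, where the receptor-bound kinase JAK2 phosphorylates STAT5, which enters the nucleus and switches on target genes. Among the first targets are Cish and Socs2, whose SH2-domain proteins bind the activated receptor and damp the signal, so that their messages are widely read as markers of recent STAT5 activity. Igf1 and Igfals are targets too: IGF1 is the main circulating mediator of growth, and the product of Igfals holds it in a long-lived complex in blood. Bcl6 encodes a repressor that binds many of the same sites as STAT5 and is itself repressed by growth hormone, and the pulse pattern of the hormone differs between the sexes, so that many liver genes are sex-biased through STAT5, Bcl6 and the female-biased Cux2.

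STAT proteins bind the palindrome TTCNNNGAA, which reads the same on both strands. It was searched for in promoter windows of 300 bases, from 250 before to 50 after the annotated start, in RefSeq GRCm38.p6; 9 of the 10 genes had entries, 16 in all. Socs2 had no entry, so its promoter was not searched. The motif was present in 6 of the 16 entries, belonging to Cish, Socs3, Igfals and Bcl6. Of all 32851 promoter entries, 8.3% held it at least once, 0.457% at least 2 times and 0.0335% at least 3 times. The windows of the feedback inhibitors Cish and Socs3, an Igfals window and the Bcl6 window with the most matches are shown because the levels below turn mostly on Cish and Bcl6, which held more than 1 match in a window. Capitals mark the motif. The Cish window is chr9:107296409-107296708 on the plus strand, with matches beginning at bases 251 and 262 counted from its 5′ end, at and just after the annotated start. The Socs3 window is chr11:117969317-117969616 on the minus strand, with 1 match at base 97. The Igfals window is chr17:24877981-24878280 on the plus strand, with 1 match at base 193. The Bcl6 window is chr16:23981234-23981533 on the minus strand, at the downstream one of 2 annotated starts, with 3 matches at bases 83, 129 and 163; the window of the other start held 1.
Cish: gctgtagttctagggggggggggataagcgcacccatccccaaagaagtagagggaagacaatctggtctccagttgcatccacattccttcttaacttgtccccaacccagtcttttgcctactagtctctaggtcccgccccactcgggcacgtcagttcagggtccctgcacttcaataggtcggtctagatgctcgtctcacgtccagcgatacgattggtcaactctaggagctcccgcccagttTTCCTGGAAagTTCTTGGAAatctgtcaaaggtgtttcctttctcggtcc
Socs3: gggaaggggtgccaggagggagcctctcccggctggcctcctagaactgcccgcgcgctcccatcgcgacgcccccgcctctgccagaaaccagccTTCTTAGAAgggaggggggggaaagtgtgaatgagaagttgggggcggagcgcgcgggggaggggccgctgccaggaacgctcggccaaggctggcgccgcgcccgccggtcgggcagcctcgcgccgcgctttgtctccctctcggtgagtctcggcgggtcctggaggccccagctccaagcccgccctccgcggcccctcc
Igfals: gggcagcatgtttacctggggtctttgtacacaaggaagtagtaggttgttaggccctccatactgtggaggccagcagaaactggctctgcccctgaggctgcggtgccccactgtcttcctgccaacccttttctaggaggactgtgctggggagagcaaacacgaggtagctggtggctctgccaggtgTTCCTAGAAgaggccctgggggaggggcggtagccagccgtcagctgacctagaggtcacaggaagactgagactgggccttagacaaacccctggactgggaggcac
Bcl6: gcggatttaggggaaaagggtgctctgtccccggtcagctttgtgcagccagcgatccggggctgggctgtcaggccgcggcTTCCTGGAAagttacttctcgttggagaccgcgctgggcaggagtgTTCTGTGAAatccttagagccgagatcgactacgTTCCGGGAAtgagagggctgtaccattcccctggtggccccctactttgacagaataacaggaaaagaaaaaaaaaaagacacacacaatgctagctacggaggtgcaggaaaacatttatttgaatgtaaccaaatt
These letters are a description of the windows; no binding was measured.

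In the GENCODE M21 annotation (GRCm38), Cish lies at chr9:107296026-107302784, Socs2 at chr10:95385362-95417180 and Socs3 at chr11:117966079-117970047. Stat5b (chr11:100780731-100850724) and Stat5a (chr11:100859351-100885169) are neighbours on opposite strands, Ghr lies at chr15:3317760-3583492, Igf1 at chr10:87858265-87937042, Igfals at chr17:24865997-24882010, Bcl6 at chr16:23965052-23988852 and Cux2 at chr5:121856366-122050102. Of the exon bases of Cish, 11.5% overlap antisense transcripts of Gm17040 and Gm17041. Gm17040 had between 0 and 18 counts in a library, and since the sources used here do not state whether counting used strand, reads in the shared bases cannot be assigned to one strand. Stat5a shares 1.01% of its exon bases with Stat3, and Bcl6 0.313% with Gm37419.

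Levels are given as counts-per-million of the reads in genes (CPM). NCD replicate 2 had the fewest reads in genes, 4281210, and HFD replicate 1 the most, 32124248; a count of 3, taken as the floor, was worth 0.701 and 0.0934 CPM in those libraries. Reads not assigned to a gene made up between 27.3% and 58.2% of a library and were most frequent in NCD replicate 1 and HFD+C2 replicate 1. Summed markers of hepatocytes (Alb, Apoa1, Ttr, Apob, Serpina1a) ranged from 32800 to 138000 CPM over all libraries, so the liver label matched its defining markers, with the lowest value in the NCD group. Per kilobase of exon, the mean level over the 12 libraries was 57.2 CPM for Igf1, 37.0 for Ghr, 16.6 for Igfals, 5.89 for Stat5b, 2.65 for Bcl6, 1.15 for Stat5a, 0.909 for Cish, 0.73 for Socs3, 0.54 for Socs2 and 0.0193 for Cux2. The secreted products and the receptor were thus the abundant messages of the set. The inhibitors Cish, Socs3 and Socs2 were scarcer, and the repressor Cux2 was the scarcest.

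**Figure D1:**
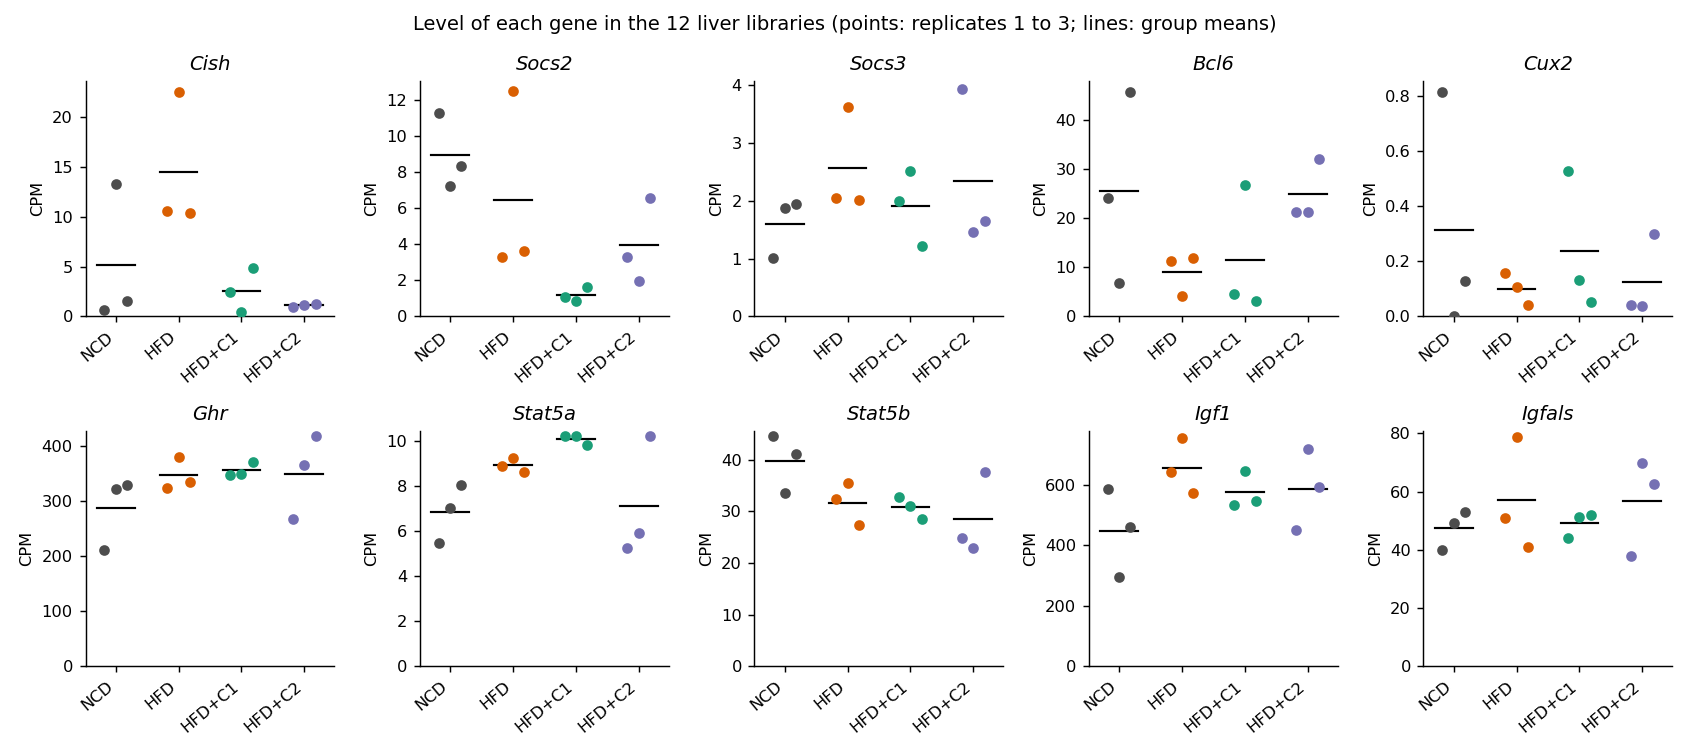
Level of each of the 10 genes in CPM (vertical axes, linear from 0) in the 12 libraries; points are replicates 1 to 3 from left to right within NCD, HFD, HFD+C1 and HFD+C2, and horizontal lines are group means. Cish stood at 10.4 to 22.5 CPM in HFD and at 0.951 to 1.24 CPM in HFD+C2, while the HFD and HFD+C2 ranges of Ghr, Igf1 and Igfals overlapped.

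Cish encodes the cytokine-inducible SH2 protein, the feedback inhibitor that gives this set its widest range: from 0.398 to 22.5 CPM, 56.6-fold, on 6 to 633 counts. In HFD livers it stood at 10.6, 22.5 and 10.4 CPM (mean 14.5 ± 6.93, SD, n = 3). In HFD+C2 it was 0.951, 1.13 and 1.24 CPM (1.11 ± 0.144), and in HFD+C1 2.49, 0.398 and 4.88 CPM (2.59 ± 2.24). All 6 libraries of the compound groups therefore lay under all 3 HFD libraries, and those of HFD+C2 lay close together while those of HFD+C1 spread 12.3-fold. NCD livers did not form 1 level: replicates 1 and 3 stood at 0.609 and 1.51 CPM, near the HFD+C2 range, and replicate 2 at 13.3 CPM, inside the HFD range.

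Socs2, a second SH2-domain inhibitor whose loss in mice causes overgrowth, had another order of groups. NCD livers were at 11.3, 7.24 and 8.38 CPM (8.96 ± 2.07, SD, n = 3) and HFD livers at 3.33, 12.5 and 3.65 CPM (6.49 ± 5.2). HFD+C1 livers were at 1.06, 0.883 and 1.64 CPM (1.19 ± 0.398), below every other library of the study. HFD+C2 livers were at 3.33, 1.97 and 6.56 CPM (3.95 ± 2.36), overlapping HFD. HFD replicate 2, the library with the highest Cish, also had the highest Socs2, and it alone put the HFD mean of Socs2 above 3.65 CPM.

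Socs3, the inhibitor best known from IL-6 and leptin signalling, was low in every library, from 1.01 to 3.93 CPM on 8 to 102 counts. NCD livers were at 1.01, 1.87 and 1.94 CPM and HFD livers at 2.05, 3.63 and 2.02 CPM, so the ranges lay side by side without overlapping. HFD+C1 values were 2.0, 2.52 and 1.22 CPM, and HFD+C2 values 3.93, 1.46 and 1.66 CPM; both overlapped the HFD and the NCD ranges.

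The repressor Bcl6 was the other widely varying gene, from 3.08 to 45.8 CPM (14.9-fold). HFD livers held 11.2, 4.16 and 11.9 CPM (9.07 ± 4.26, SD, n = 3), and HFD+C2 livers 21.3, 21.2 and 32.0 CPM (24.8 ± 6.21), with no overlap. NCD livers, at 24.2, 6.77 and 45.8 CPM, and HFD+C1 livers, at 4.6, 26.7 and 3.08 CPM, each held libraries on both sides. The libraries that stood apart within those 2 groups, NCD replicate 2 and HFD+C1 replicate 2, were also the ones that stood apart for Cish, in the opposite direction. Cux2, a female-biased repressor, was near the limit of detection: it had 0 to 14 counts, 8 of 12 libraries were at or under the floor of 3 counts, and no change is given for it.

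The receptor Ghr was among the most even of the genes. Its levels were 210, 322 and 329 CPM in NCD and 324, 380 and 335 CPM in HFD. They were 347, 349 and 371 CPM in HFD+C1, and 267, 365 and 417 CPM in HFD+C2. All neighbouring groups overlapped. Stat5b, the main STAT5 form of liver, was at 44.5, 33.6 and 41.0 CPM in NCD and 32.3, 35.4 and 27.3 CPM in HFD. In HFD+C1 it was at 32.8, 31.0 and 28.5 CPM, and in HFD+C2 at 24.8, 22.8 and 37.6 CPM. Stat5a, its close paralog, was the scarcer form, at 1.15 against 5.89 CPM per kilobase. Its levels were 5.48, 7.01 and 8.04 CPM in NCD, 8.9, 9.25 and 8.61 CPM in HFD, and then 10.2, 10.2 and 9.81 CPM in HFD+C1, so that these 3 groups formed steps without overlap. The HFD+C2 livers, at 5.23, 5.92 and 10.2 CPM, covered the whole of that range.

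Of the circulating products, Igf1 was at 586, 296 and 462 CPM in NCD (448 ± 145, SD, n = 3) and 642, 756 and 574 CPM in HFD (657 ± 91.7). It was at 533, 645 and 548 CPM in HFD+C1 (575 ± 60.7) and at 449, 719 and 592 CPM in HFD+C2 (587 ± 135). Igfals had group means of 47.3 ± 6.72 CPM in NCD, 57.0 ± 19.7 in HFD, 49.1 ± 4.47 in HFD+C1 and 56.8 ± 16.6 in HFD+C2, with libraries from 38.0 to 78.9 CPM. Neither product was set apart under the compounds in the way Cish was: the HFD+C1 and HFD+C2 ranges of both genes overlapped the HFD range. Across all 10 genes and the order of their group means, the only neighbouring groups that did not overlap were HFD+C2 and HFD+C1 for Socs2, and HFD+C1 and HFD for Stat5a.

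Within-group spread separated the genes in the same way. The SD of log2(CPM + 0.5) within groups was 1.2 for Cish, larger than that of 99.9% of the 10133 genes that averaged 50 counts or more, and 1.12 for Bcl6, larger than 99.8%. Socs2 (0.66) exceeded 97.2% of those genes. The median gene had 0.3; Igfals (0.35), Igf1 (0.33), Stat5a (0.28), Ghr (0.26) and Stat5b (0.24) lay near it. The genes with the largest differences between groups were thus also those that differed most between mice fed and treated alike.

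Diet was compared first, HFD against NCD. Changes are log2 changes with their standard error (SE), fitted with edgeR on counts scaled by TMM. The estimate was 2.01 (SE 0.89) for Cish, with a 95% interval of -0.02 to 4.04, and -1.33 (SE 0.62) for Bcl6, with an interval of -2.74 to 0.07. It was 0.78 (SE 0.25) for Igf1, 0.86 (SE 0.43) for Socs3, 0.58 (SE 0.24) for Stat5a, and 0.47 for both Igfals (SE 0.26) and Ghr (SE 0.24). Socs2 was at -0.27 (SE 0.48) and Stat5b at -0.11 (SE 0.18). The 95% interval was 0.21 to 1.35 for Igf1, 0.04 to 1.12 for Stat5a, -0.13 to 1.85 for Socs3, -0.13 to 1.07 for Igfals and -0.07 to 1.01 for Ghr. Of the 9 genes with enough counts, 0 had an adjusted p under 0.05 by edgeR, beside 6.14% of all 13864 genes tested. Socs3 and Stat5a were higher without overlap, beside 11.9% of all genes, and 0 were lower, beside 27.0%. Nothing is read from these counts, since the genes were chosen with these contrasts known. The Cish estimate moved with single libraries: it was 3.83 without NCD replicate 2, where it passed the threshold, and 1.44 without NCD replicate 3. It also passed when genes were tested without a filter. Igf1 passed without NCD replicate 1, at 0.93. Without HFD replicate 2 the Socs2 estimate was -1.11, and without NCD replicate 3 that of Bcl6 was -0.52. Scaling by total counts moved the median of all genes from -0.02 to -0.23. Under it Igf1 was at 0.55, Stat5a at 0.38, Ghr and Igfals at 0.27, Stat5b at -0.33 and Socs2 at -0.48, so all diet changes should be read relative to that shift.

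C1 was compared with HFD alone. Cish was at -2.54 (SE 0.49, 95% interval -3.6 to -1.48), a 5.81-fold lower level, and Socs2 at -2.46 (SE 0.46, interval -3.46 to -1.46), 5.51-fold lower. The 2 inhibitors were lower by nearly the same amount, and every HFD+C1 library lay below every HFD library for both. The receptor and both STAT5 forms had estimates within 0.15 of 0: 0.02 (SE 0.11) for Ghr, 0.15 (SE 0.13) for Stat5a and -0.06 (SE 0.12) for Stat5b. Igf1 was at -0.21 (SE 0.13), Igfals at -0.23 (SE 0.18), Socs3 at -0.42 (SE 0.31) and Bcl6 at 0.32 (SE 0.61). Of the 9 genes, 0 passed the threshold of edgeR, beside 0.0524% of all 13358 genes, and 2 were lower and 1 higher without overlap, beside 5.54% and 6.6% of all genes; again nothing is read from the counts. These values depended on single libraries. The Cish estimate was -2.03 without HFD+C1 replicate 2 and -3.29 without HFD+C1 replicate 3. The Socs2 estimate was -1.61 without HFD replicate 2, and the Bcl6 estimate was -1.27 without HFD+C1 replicate 2 and 0.77 without HFD+C1 replicate 3. With 1 library left out, Socs2 passed the threshold in 1 of 6 fits and Cish in 0.

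C2 was compared with the same 3 HFD libraries, so its values and those of C1 are not independent. Cish was at -3.65 (SE 0.33, 95% interval -4.4 to -2.91), a 12.6-fold lower level. Bcl6 was at 1.47 (SE 0.35, interval 0.68 to 2.26), 2.77-fold higher. Socs2, at -0.68 (SE 0.53, interval -1.87 to 0.51), overlapped HFD, and its estimate was 0.18 without HFD replicate 2. The other estimates lay between -0.3 (SE 0.22) for Stat5a and 0.05 (SE 0.18) for Ghr, with Igf1 at -0.12 (SE 0.21), Igfals at 0.04 (SE 0.26), Stat5b at -0.13 (SE 0.19) and Socs3 at -0.05 (SE 0.43). The Socs3 estimate was -0.72 without HFD+C2 replicate 1 and 0.26 without HFD replicate 2. Cish was 1 of only 3 genes in the whole table below the threshold of edgeR, which is 0.0222% of 13503 genes; since Cish was chosen with this contrast known, the count supports nothing. Groups did not overlap for Cish (lower, beside 8.39% of all genes) and Bcl6 (higher, beside 4.58%). The Cish estimate was -2.76 with limma on log2(CPM + 1) and lay between -3.83 and -3.22 when any 1 library was left out, and it passed the threshold in 4 of those 6 fits. In the others, without HFD replicate 1 or HFD+C2 replicate 3, edgeR called 0 genes of the whole table (308 and 1250 had an unadjusted p under 0.05).

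**Figure D2:**
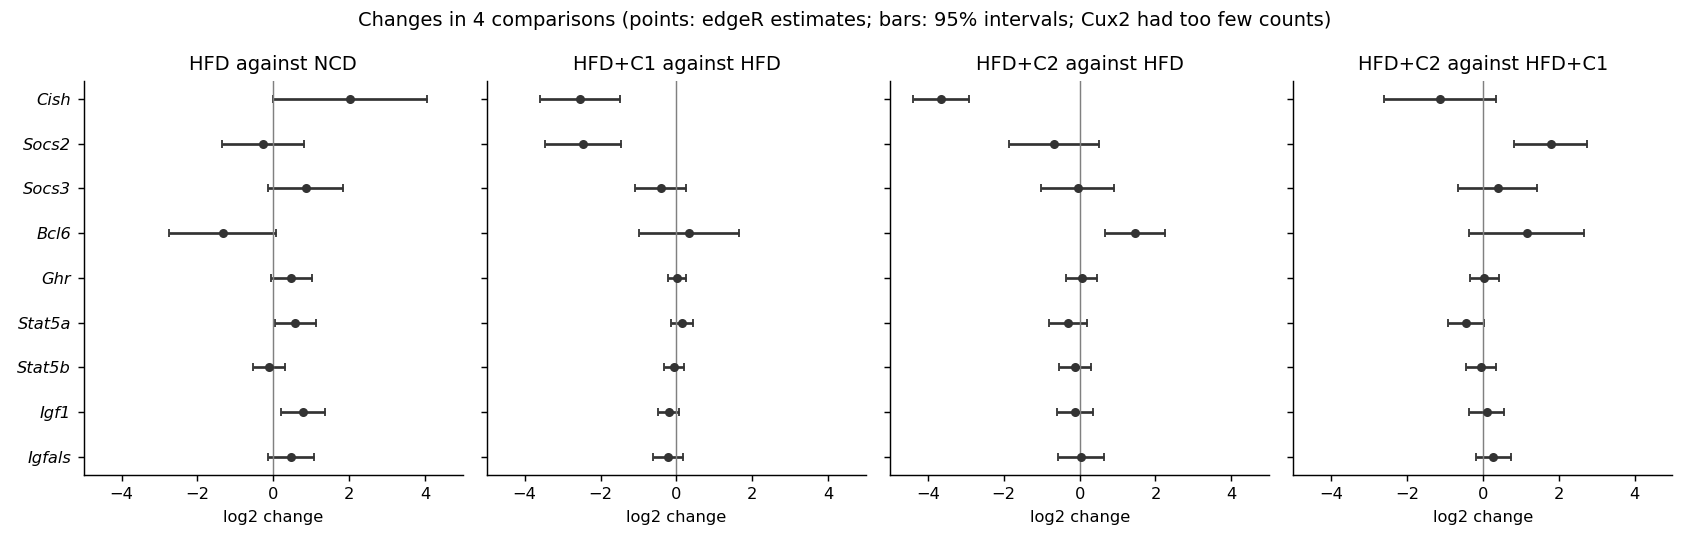
Log2 change of 9 genes (horizontal axes) in the 4 comparisons named above the panels; points are edgeR estimates and bars 95% intervals from 3 against 3 libraries, and the vertical line marks no change. Cish lies at -2.54 under C1 and -3.65 under C2, Socs2 at -2.46 and -0.68, while Ghr, Stat5b, Igf1 and Igfals stay within 0.3 of 0 under both compounds.

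C1 and C2 were given at the same dose and for the same time, and were compared directly over their 6 libraries, for 9 genes. Socs2 was higher in HFD+C2 than in HFD+C1 by 1.79 (SE 0.43, 95% interval 0.82 to 2.75), 3.45-fold, and the groups did not overlap, beside 4.09% of all genes that were higher without overlap; 0 were lower without overlap, beside 7.51%. Cish was at -1.12 (SE 0.66), with an interval of -2.61 to 0.36, and Bcl6 at 1.16 (SE 0.67), with an interval of -0.36 to 2.67; these intervals include 0 as well as differences of several-fold. The Cish difference was -1.63 without HFD+C1 replicate 2 and -0.32 without HFD+C1 replicate 3. The Bcl6 difference was 2.76 without HFD+C1 replicate 2 and 0.71 without HFD+C1 replicate 3. The interval was -0.35 to 0.43 for Ghr, -0.45 to 0.34 for Stat5b, -0.93 to 0.04 for Stat5a, -0.37 to 0.57 for Igf1 and -0.19 to 0.74 for Igfals. Of the 9 genes, 0 passed the threshold of edgeR, beside 0.0% of all 13229 genes (608 had an unadjusted p under 0.05, and DESeq2 called 3). A p above the threshold does not show that the compounds act alike.

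Cish and Bcl6 were opposed across the libraries, and within groups the opposition came mostly from the outlying NCD replicate 2, HFD replicate 2 and HFD+C1 replicate 2; in HFD+C2, replicate 3 had the highest value of both. Across the 12 libraries Pearson's r of their log2(CPM + 0.5) was -0.7 and Spearman's rho -0.69; r was -0.59 without the 2 libraries farthest from the median of Cish and -0.67 without the 2 richest in unassigned reads. After the group means were taken out r was -0.87, the rank 17 most negative of 10132 genes set against Cish. The ratio of Cish to Bcl6 CPM ran from 0.0149 in HFD+C1 replicate 2 to 5.41 in HFD replicate 2. The ratio lay between 0.0386 and 0.0534 for HFD+C2, and between 0.876 and 5.41 for HFD. In NCD it was 0.0251 and 0.033 in replicates 1 and 3 but 1.97 in replicate 2, and in HFD+C1 0.541 and 1.59 in replicates 1 and 3 but 0.0149 in replicate 2. The libraries share groups, depth and processing, 36 pairs of genes were looked at, and the hour of collection is not in the labels, so these are descriptions only. For Cish with Socs2 r was 0.29, with 0.51 without the 2 libraries richest in unassigned reads and -0.1 without the 2 farthest from the median of Cish. The r of Ghr was 0.73 with Stat5a and 0.7 with Igfals, and 0.33 and 0.62 without those 2 richest in unassigned reads. Socs2 was closest within the set to Stat5b (r 0.63, rho 0.68, and r 0.58 without them).

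**Figure D3:**
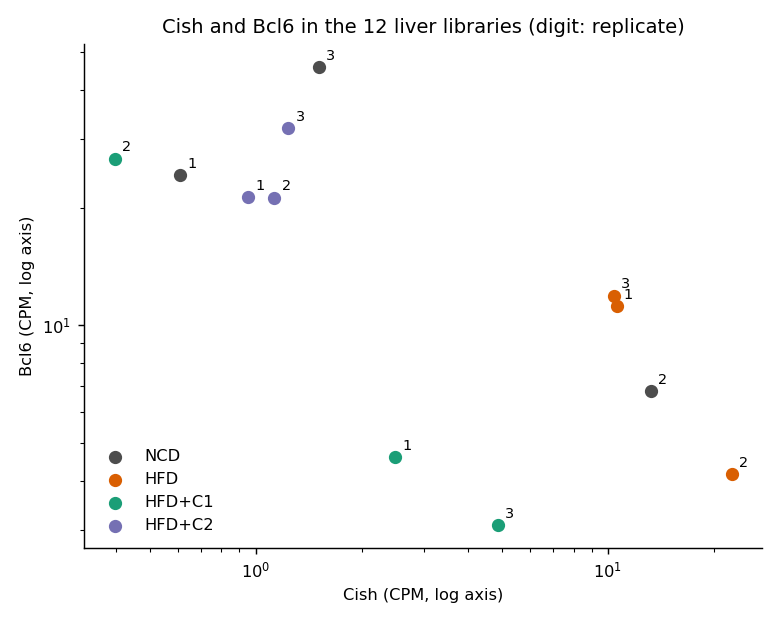
Level of Cish (horizontal, CPM, log axis) against Bcl6 (vertical, CPM, log axis) in each of the 12 libraries, coloured by group and marked with the replicate number. NCD replicate 2 lies with the HFD libraries at 13.3 and 6.77 CPM, and HFD+C1 replicate 2 lies at 0.398 and 26.7 CPM, near the HFD+C2 libraries.

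For each gene the 3 genes with the most similar pattern over the 12 libraries, by Pearson's r of log2(CPM + 0.5), were listed. For Cish they were Plk3 (r 0.9), Errfi1 (0.89) and Slc25a25 (0.86), and with group means taken out r was 0.88, 0.88 and 0.93. For Bcl6 they were Depp1 (0.83), Fmo4 (0.77) and Zfp946 (0.77). For Socs2 they were Zyg11a (0.91), Serpina4-ps1 (0.88) and Kat6b (0.87), and for Igf1 Ikbke (0.94), C87436 (0.9) and Isg15 (0.89). Ghr ran with Plpbp, Mmachc and Cdo1 (each 0.97), Igfals with Jpt2 (0.9), Nupl2 (0.86) and Adgrl2 (0.84), Stat5a with Sphk2 (0.93), Abhd4 (0.93) and Mars1 (0.92), and Stat5b with Spata13 (0.93), Zxdc (0.89) and Sgms2 (0.89). The likeness of Socs3 to Ssr4 (0.81), Paip2 (0.8) and 5430416N02Rik (0.8) dropped to between 0.53 and 0.55 without the 2 libraries richest in unassigned reads. The lists of different genes did not overlap, and no gene of the set was among the nearest of another.

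Other genes of the pathway were counted from 5 lists, none of which contains the 10 genes. The lists too were chosen with earlier results of these data known, so their counts are descriptions. Under HFD against NCD, 1 of 27 tested genes of JAK-STAT and receptor signalling passed the threshold, beside 6.14% of all genes: Irs2, the insulin receptor substrate, fell by 2.35 on the log2 scale (SE 0.3, adjusted p = 0.0088 by the quasi-likelihood test of edgeR, Benjamini-Hochberg adjusted), from 17.6 ± 6.34 to 2.95 ± 0.731 CPM (SD, n = 3). Of 10 genes of the IGF axis, the binding protein Igfbp7 rose by 1.52 (SE 0.32, edgeR adjusted p = 0.0396) and Igfbp2 fell by 1.72 (SE 0.22, edgeR adjusted p = 0.00823), from 522 ± 93.7 to 138 ± 0.147 CPM. Of 21 hepatocyte transcription factors that act with or near STAT5, Ppara, the fatty acid receptor, rose by 1.14 (SE 0.25, edgeR adjusted p = 0.0418). In this main fit the share called in the signalling and transcription factor lists was under that of all genes. Without a filter 5 signalling genes were called higher and 1 lower, and 6 transcription factors higher and 0 lower, beside 4493 calls among 35374 genes.

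Lists of genes that are sex-biased in mouse liver through growth hormone had more calls. Since these lists were chosen with earlier results of these data known, the counts below support nothing. The Y-linked genes Ddx3y, Eif2s3y, Kdm5d and Uty each had at least 30 counts in all 12 libraries, and Xist, the marker of a silenced X, had 0 to 30, with the 30 in NCD replicate 1. The summed level of these 5 was 112 to 154 CPM in NCD and 61.1 to 84.0 CPM in HFD, with a median change of -0.557 over the 4 tested, of which 3 had an unadjusted p under 0.05, beside 28.8% of all genes, and 0 were called; its part in the values below was not tested. Of 26 tested male-biased genes 9 fell under the diet and 0 rose, beside 3.48% and 2.65% of all genes tested, with a list median of -1.35 beside -0.02 for all genes. They included Ugt2b38, a glucuronidation enzyme (-3.68, SE 0.84), Selenbp2 (-3.48, SE 0.53), the protease inhibitor Serpina1e (-2.98, SE 0.59) and the sulfotransferase Sult5a1 (-1.81, SE 0.38); the other 5, named after their values were seen, were Cyp7b1, Nudt7, Elovl3, Gstp1 and Nat8. Serpina1e was at 7250 ± 1640 CPM in NCD and 810 ± 745 CPM in HFD (SD, n = 3). Of 30 tested female-biased genes 7 rose and 5 fell, with a median of 0.64. Cyp2b13 rose by 4.97 (SE 0.45), from 0.619 ± 0.452 to 17.1 ± 0.374 CPM, and Cyp2b9 by 3.87 (SE 0.47), from 14.6 ± 7.71 to 188 ± 38.0 CPM; Hao2 rose by 2.5 (SE 0.44) and Cyp2c39 by 2.48 (SE 0.45). The 5 that fell included Cyp2b10 (-5.04, SE 0.38), a target of the xenobiotic receptor CAR, Cyp2c40 (-3.82, SE 0.67), and the bile acid enzymes Cyp7a1 (-2.68, SE 0.29) and Cyp39a1 (-0.98, SE 0.22). The female-biased list therefore did not move 1 way. The Cyp2b, Cyp2c and Serpina1 genes belong to families of similar sequence. Multimapping reads were held apart from the gene counts, at 5.169% to 7.495% of a library, so single values of these genes are uncertain.

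These diet calls depended on single libraries. The male-biased count of 9 was 0 without HFD replicate 1 or HFD replicate 3, 6 without NCD replicate 3 and 19 without NCD replicate 1. Over all settings and left-out libraries the estimate of Ugt2b38 lay between -5.51 and -2.63, Selenbp2 between -4.34 and -3.17, Serpina1e between -4.02 and -2.63 and Sult5a1 between -2.1 and -1.39. The female-biased counts of 7 higher and 5 lower were 3 and 2 without HFD replicate 1, and 3 and 1 without HFD replicate 3. Over all genes, the 851 calls dropped to 23 and 25 without those 2 HFD libraries. Of the genes named above, Cyp2b13 and Cyp2b10 passed in all 6 such fits. With all libraries kept, Sult5a1 and Cyp39a1 passed in 6 of 8 other settings and Cyp2c40 in 7 of 8. The other sex-biased genes given with a diet estimate passed in 8 of 8.

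**Figure D4:**
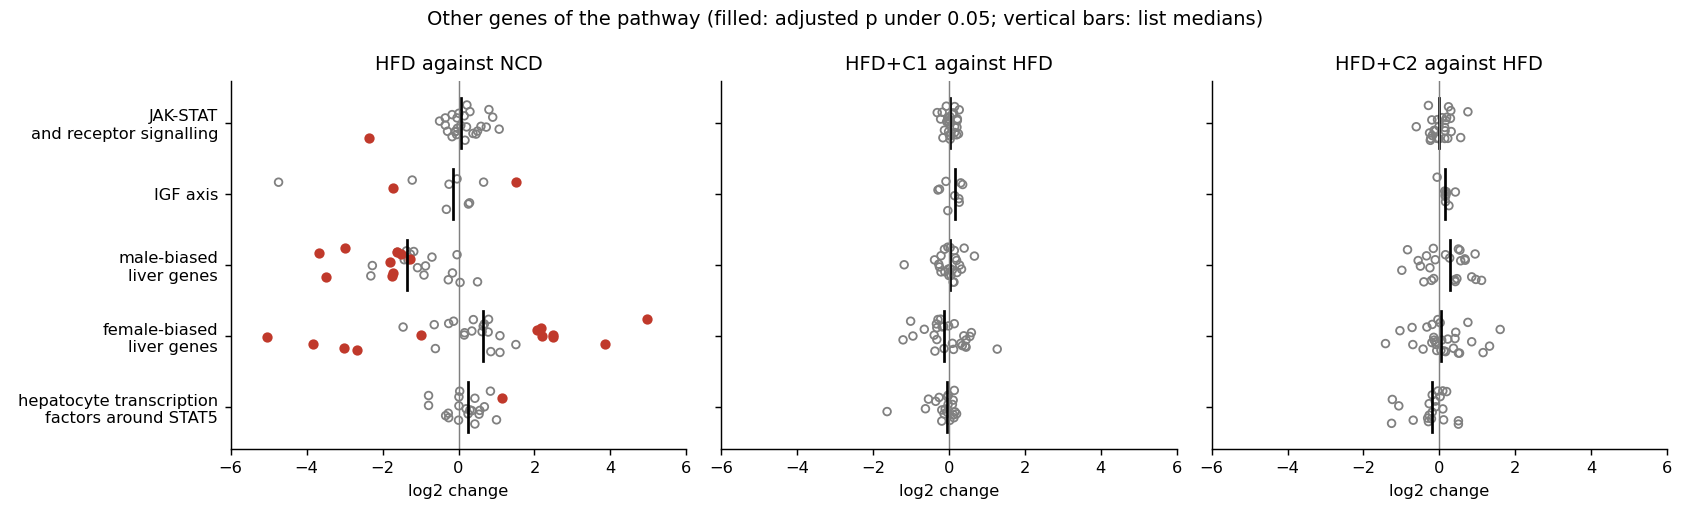
Log2 change (horizontal axes) of every tested gene of 5 pathway lists in 3 comparisons; each point is a gene, filled where its adjusted p by edgeR was under 0.05, and vertical bars are list medians. Under the diet the male-biased list has a median of -1.35 with 9 genes lower, and under either compound 0 genes are filled.

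Under C1, C2, and C2 against C1, 0 genes of the 5 lists passed the threshold of edgeR, beside 0.0524%, 0.0222% and 0.0% of all genes, shares at which lists of this size hold few or no calls. At an unadjusted p under 0.05 the female-biased list had 7 of 27 genes under C1 (4 higher, 3 lower) and 5 of 30 under C2 (2 higher, 3 lower), and the male-biased list 1 of 25 and 2 of 25, beside 7.75% and 6.89% of all genes. The smallest p of a list belonged to Cyp7a1, the rate-limiting enzyme of bile acid synthesis, under C1 (1.27, SE 0.22, edgeR adjusted p = 0.0925), which also stood at 1.6 (SE 0.39, edgeR adjusted p = 0.695) under C2. Foxa2, a hepatocyte pioneer factor, stood at -0.62 (SE 0.15, edgeR adjusted p = 0.237) under C1 and -1.26 (SE 0.2, edgeR adjusted p = 0.262) under C2. Igfbp2 was at 0.31 (SE 0.11) and Socs7 at -0.31 (SE 0.17) under C1, and Irs2 at 0.75 (SE 0.3) and Igfbp1 at 0.42 (SE 0.19) under C2.

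The bulk libraries cannot tell fewer cells of a type from less RNA per cell. Of 6 markers of Kupffer cells and macrophages, 5 had an unadjusted p under 0.05 under each compound, beside 7.75% of all genes for C1 and 6.89% for C2, with list medians of 0.748 under C1 and 0.789 under C2, and 0 passed the adjusted threshold. Their summed level was 122 to 172 CPM in HFD, 210 to 270 CPM in HFD+C1, 169 to 349 CPM in HFD+C2 and 150 to 300 CPM in NCD. None of the 6 was at 0 throughout a group. Of 5 erythroid markers, 3 had an unadjusted p under 0.05 under C1, beside the same 7.75%, with a list median of -0.601, 0 called, and a summed level of 260 to 364 CPM in HFD and 187 to 301 CPM in HFD+C1. The part of either list in the values of Cish, Socs2 and Bcl6 was not tested. Summed hepatocyte markers were 32800 to 78400 CPM in NCD, wholly below the 87100 to 106000 CPM of HFD; their median change under the diet was 0.609, with 2 of 5 at an unadjusted p under 0.05, beside 28.8% of all genes. They were 99800 to 109000 CPM in HFD+C1 and 69800 to 138000 CPM in HFD+C2, and 0 of 5 passed in any comparison. Of 6 markers of stellate cells and fibroblasts, 2 were called higher under the diet, beside 2.65% of all genes, with a list median of 0.473. Their summed levels overlapped, at 78.2 to 109 CPM in NCD and 89.9 to 119 CPM in HFD. The part of either list in the diet changes above was not tested.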

How the data were processed

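Liver RNA from 12 libraries was analysed. The authors deposited 3 tables of counts; named as normalized, they hold raw counts, since all values are whole numbers with unequal totals (6654983 to 47352550), and the HFD columns are identical in each (0 cells differ). Per the submitters' processing notes, Trimmomatic 0.39, STAR 2.7, DESeq2 and mm10 were used, with roles not given; counting program, annotation, strand and filters are not given in the sources used here. Per the labels' protocols, libraries were prepared from total RNA on a microfluidic instrument.

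The 4 rows naming no gene (27.3% to 58.2% of a library) were left out of library sizes. Counts were tested with edgeR 4.0.16 (quasi-likelihood, TMM, R 4.3.3) over 6 libraries per comparison, for genes that averaged 10 counts or more, with Benjamini-Hochberg adjustment over all genes and a call at an adjusted p under 0.05. The scripts were tested on simulated data. Replicates differed by more than sampling noise, and p-values measure only the spread between these libraries. Floors cover counting error only. CPM is scaled by reads in genes, log2 changes by TMM, so ratios of CPM differ from them.

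The 10 genes, the 5 lists (135 genes; Lnk, Cml5 and Hnf6 were not matched) and the markers were chosen with earlier results of these data known. From each list and comparison, up to 4 called genes a direction by size of change were named, with a mean of at least 50 counts; where none was called, the gene with the smallest p was eligible. Alternatives were median-ratio or total-count scaling, DESeq2 1.42.0, limma 3.58.1 on log2(CPM + 1), no filter or a minimum mean of 50 counts, all 12 libraries, a replicate block, and leaving out each library.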

Additional observations from a re-analysis of the deposited data

Results flagged for a closer look

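Reads outside the gene table stood out in 2 libraries: they were 58.15% of NCD replicate 1, where 23.22% lay in no annotated feature, and 47.09% of HFD+C2 replicate 1. In HFD+C2 replicate 1 the share of ambiguous reads was 9.04%, beside 3.91% to 4.96% in the HFD libraries. Reads in no annotated feature made up 10.9%, beside 4.92% to 6.84% in HFD. Unmapped reads made up 21.9%, beside 12.8% to 16.6% in HFD. These 3 shares lay above the HFD range, while NCD libraries had up to 7.88% ambiguous and 23.22% featureless reads. They entered no comparison between groups. In that library Cish was 0.951 CPM and Bcl6 21.3 CPM, close to the other HFD+C2 libraries, while Socs3, at 3.93 CPM, was the highest of the 3, and Igf1 (449 CPM), Igfals (38.0 CPM) and Ghr (267 CPM) were the lowest.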

How the results depend on the processing

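Of the values of the 9 tested genes, 281 stayed within the spread between replicates under other settings with all libraries and 5 moved beyond it; with 1 library left out, 207 stayed and 9 moved. No called gene reversed. Since the 10 genes were chosen with these contrasts known, the passes below describe dependence on settings and support no result. Cish under C2 passed in 7 of 8 other settings, Cish under C1 in 2 of 8 and Socs2 under C1 in 3 of 8; of those not called, Igf1 under the diet and Bcl6 under C2 passed in 2 of 8, and Cish and Bcl6 under the diet and Socs2 and Bcl6 for C2 against C1 in 1 of 8 each. The number of genes called for the diet, 851, was 2298 with DESeq2, 374 with limma, 4493 without a filter, 524 with a mean of at least 50 counts, 1996 in a fit of all 12 libraries, and 23 to 1838 with 1 library left out (1838 without NCD replicate 1, 487 without NCD replicate 3, 131 without HFD replicate 2). Under total count scaling 22.2% of the diet calls were higher, beside 43.2%. The 7 calls for C1 were 77 with DESeq2, 206 without a filter, 0 with all 12 libraries (300 at an unadjusted p under 0.05 by edgeR) and 2 to 102 with 1 library left out, the 102 without HFD replicate 2, the 2 without HFD replicate 1 or HFD+C1 replicate 1, and 3 without HFD replicate 3. The 3 calls for C2 were 35 with DESeq2, 152 without a filter, 0 with all 12 libraries (711 unadjusted by edgeR) and 0 to 27 with 1 library left out, the 27 without HFD+C2 replicate 1. For C2 against C1 the count of 0 was 3 with DESeq2, 162 without a filter, and 0 to 1 with 1 library left out. The causes were not tested. The deviations of same-numbered libraries had r from -0.206 to 0.264 over comparisons, beside -0.299 to 0.371 for unlike numbers. With 3 libraries a group, these values cannot settle whether the numbers pair the libraries. With the replicate block 449 genes were called for the diet, 36 for C1, 3 for C2 and 0 for C2 against C1. Depth limits Cux2, Cish in NCD replicate 1 and HFD+C1 replicate 2 (6 and 9 counts), and Socs3 in NCD replicates 1 and 2 (10 and 8 counts).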
